A study of Mus musculus with 6 samples.

Results

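Fibroblast growth factor (FGF) signalling in neural crest was followed through 41 genes: the FGF ligands, their receptors and co-receptors, the feedback inhibitors Spry1 to Spry4, Spred1 to Spred3, Dusp6 and Il17rd, and the transcription factors Etv1, Etv4 and Etv5. They were all the symbols with those names among the 21006 symbols of the deposited count table, and the rule that picks them uses names and no measured value. Each library was made from the polyadenylated RNA of TdTomato-sorted cells, freed with papain from mouse branchial arches of stage E11.5. The 3 DKO (double knockout) libraries were homozygous for the floxed alleles Ehmt1f/f and Ehmt2f/f, and the 3 control libraries were Ehmt1+/+ and Ehmt2+/+. All 6 carried the red reporter Rosa26 TdTomato/+ together with Wnt1-cre. Wnt1-cre acts in the neural crest and in part of the neural tube, so both the deletion and the sorted colour depend on cells that have expressed it. Replicates are labelled biological, without a statement on pooling of embryos, so p-values measure the spread between these samples.

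Secreted FGFs bind heparan sulfate and receptor tyrosine kinases, and the receptors signal through RAS and the kinase ERK. ERK activity switches on Dusp6, the Sprouty genes and the Etv factors, which are therefore widely read as a record of FGF signal, and Dusp6, Sprouty and Spred proteins damp the pathway in return. In the arches, Fgf8 from the surface epithelium patterns the crest and keeps it alive, while Fgf10 is made by mesenchyme and signals back to epithelium through a splice form of Fgfr2. Ehmt1 and Ehmt2 encode GLP and G9a, the paired enzymes that place mono- and dimethylation on histone H3 lysine 9, a mark of repressed chromatin.

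Total counts lay between 23414466 and 44538260 per library. Ehmt2 ranged from 119 to 140.4 CPM (counts relative to library size, TMM-scaled) in DKO against 347 to 359.7 CPM in the controls, and Ehmt1 from 133 to 168 CPM in DKO libraries against 250.03 to 268 CPM in the controls, so that no DKO library reached a control. These counts include exons outside any deleted part. DKO replicate 3 scored -0.931 on the first principal component (44.6% of the variance in log2 CPM), apart from DKO replicates 1 and 2 at -20.5 and -27.2 and nearest the controls at 9.44 to 20.9. Counts on Y-linked genes were 1 for DKO replicate 3 and 0 for control replicate 2, and 4635 to 8794 elsewhere. All 11 crest mesenchyme markers examined, such as Prrx1 and Twist1, were detected, with a summed level of 1947 to 2429 CPM in DKO libraries and 2215 to 2634 CPM in controls. In such bulk samples, fewer cells of a type and less RNA per cell cannot be told apart.

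Of the 41 FGF genes, 1 had no count in any library, 8 fell under the filter on low counts and 32 were tested. Among these 32, 0 rose and 1 fell in DKO at an adjusted p below 0.05 (edgeR quasi-likelihood test, adjusted over all genes), which is 3.12% of them, against 3.01% of all 14555 tested genes (2.19% called higher and 0.818% called lower). At an unadjusted p below 0.05 there were 9 of 32 members, or 28.1%, against 20.9% of all tested genes. With the DESeq2 Wald test 1 rose and 1 fell, where the same test called 7.60% of all tested genes. The groups did not overlap for 8 of the 32, with DKO higher for 2 and lower for 6, or 25.0%, against 27.2% of all tested genes. The median log2 fold change was -0.06 over the 32 genes and -0.01 over all tested genes, and 0.02 against 0.07 with library-size scaling only. The called shares were thus near those of all genes, and the results below are those of single members.

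Fgf10, the mesenchymal ligand of the Fgf7 subfamily, was the member that fell. It stood at 11.9, 13.6 and 12.6 CPM across DKO replicates 1 to 3, compared with 23.5, 21.4 and 18.05 CPM across control replicates 1 to 3. Every DKO library lay below every control library, and the DKO libraries lay closer together than the controls. The means were 12.7 ± 0.846 CPM in DKO libraries and 21.0 ± 2.75 CPM in controls (SD, n = 3 each), a ratio of 0.605 with a 95% interval of 0.495 to 0.740. With an SE of 0.13, the log2 fold change of Fgf10 was -0.72 (edgeR adjusted p = 0.0238). Leaving out DKO replicate 1, control replicate 1 or control replicate 2 ended the call (adjusted p = 0.118, 0.0862 and 0.101, log2 fold changes -0.68, -0.62 and -0.70), as did a test against a 1.5-fold change (adjusted p = 1). Fgf10 shares 123 exon bases with an antisense gene, Gm16263, which was not tested.

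Upstream sequence is shown for Fgf10 beside Spry1 and Dusp6, feedback genes described further on with a mean that was higher in DKO, neither of them called. Each run is the 250 bases before the RefSeq start on the gene's strand, 5′ to 3′ (GRCm38.p6), with CpG dinucleotides in capitals, since CpG content is one way in which promoters differ. The windows are chr13:118714449-118714698, chr3:37639697-37639946 and chr10:99262981-99263230, all on the plus strand.
Fgf10: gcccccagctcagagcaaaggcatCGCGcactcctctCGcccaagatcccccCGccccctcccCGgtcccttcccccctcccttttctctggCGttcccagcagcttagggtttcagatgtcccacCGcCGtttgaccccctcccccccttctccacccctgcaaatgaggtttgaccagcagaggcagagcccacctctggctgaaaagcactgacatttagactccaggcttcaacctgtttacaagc
Spry1: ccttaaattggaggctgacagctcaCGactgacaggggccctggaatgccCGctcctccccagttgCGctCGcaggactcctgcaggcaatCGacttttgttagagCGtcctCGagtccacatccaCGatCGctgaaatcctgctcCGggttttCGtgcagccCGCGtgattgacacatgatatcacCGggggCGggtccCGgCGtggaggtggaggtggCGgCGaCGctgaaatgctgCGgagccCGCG
Dusp6: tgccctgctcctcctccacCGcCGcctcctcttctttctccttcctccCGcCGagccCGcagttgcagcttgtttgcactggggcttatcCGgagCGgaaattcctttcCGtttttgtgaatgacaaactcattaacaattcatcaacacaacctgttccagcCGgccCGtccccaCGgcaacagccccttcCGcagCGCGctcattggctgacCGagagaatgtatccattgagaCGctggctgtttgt
The Fgf10 window held 8 CpG, the Spry1 window 23 and the Dusp6 window 16. Over the full table windows of 300 bases, which run 50 bases past the start, the 40 windows of 31 FGF genes had a median of 19 CpG (3 to 47), against a median of 7 over 32851 windows of all genes. The ETS letters CCGGAAGT, the kind of site that Etv factors bind, were found on either strand in 1 of the 40 windows, that of the decoy receptor gene Fgfrl1, and in 3.89% of all windows. The AP-1 letters TGACTCA were in 1 of the 40, a window of Fgf12, and in 5.20% of all windows, and the CRE letters TGACGTCA in 0 of the 40 and 1.79% of all windows. A match or its lack describes these letters in these windows only.

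**Figure D1:**
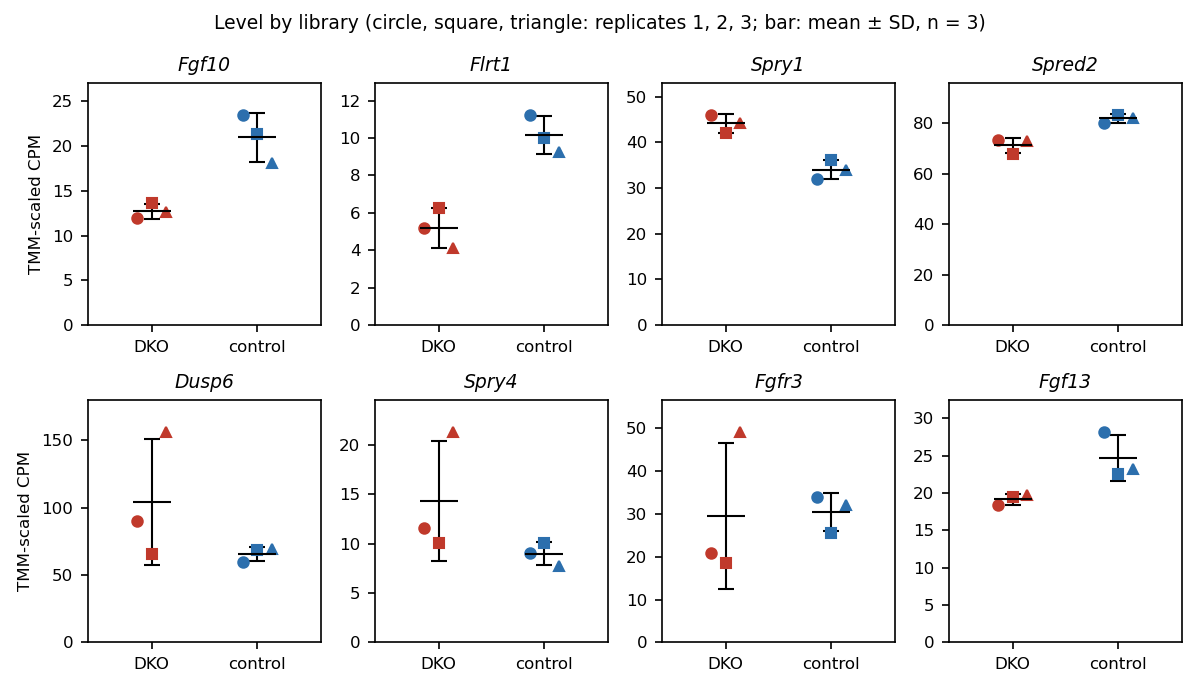
TMM-scaled CPM (vertical axes, from 0) of 8 genes in the DKO (left, red) and control (right, blue) libraries, with replicates 1, 2 and 3 as circle, square and triangle and bars for the mean ± SD (n = 3). Fgf10 and Flrt1 were lower and Spry1 higher in every DKO library, while Dusp6, Spry4 and Fgfr3 were highest in DKO replicate 3.

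None of the other secreted ligands was called, and those other than Fgf18 and Fgf15 were scarce in these sorted cells. Of 22 ligand genes, 15 were tested, among them the 4 intracellular FGFs. Of the 15, 10 had a log2 fold change below 0 and 5 above it, where 48.8% of all tested genes lay above 0. The count was the same with RLE or library-size scaling, and 9 below and 6 above without DKO replicate 3. Per kilobase of exon, which allows genes to be compared, Fgf10 stood at 2.76 CPM per kb in DKO and 4.56 CPM per kb in control libraries. Fgf18, a ligand known from bone and palate growth, stood at 2.95 in DKO and 3.10 in control libraries on the same scale, and Fgf15 at 2.11 and 3.36. The highest ligand-family level per kilobase was that of Fgf13, an intracellular member, at 4.77 in DKO and 6.14 in control libraries. Every other ligand gene lay below Fgf15 in both groups.

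Fgf7, a keratinocyte growth factor and the other tested member of that subfamily, was not called. It had 1.72, 2.54 and 1.83 CPM across DKO replicates 1 to 3, compared with 1.95, 1.12 and 1.44 CPM across control replicates 1 to 3, and the groups overlapped. The ratio was 1.34 with an interval of 0.852 to 2.09. Fgf3 and Fgf22, of the same subfamily, had 62 and 9 counts over all 6 libraries and were not tested.

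In the Fgf8 subfamily, the log2 fold changes of all 3 tested members lay below 0 and all groups overlapped. Fgf8 itself, the epithelial signal of the arch, had 0.269, 0.388 and 1.12 CPM across DKO replicates 1 to 3, compared with 0.514, 1.03 and 0.991 CPM across control replicates 1 to 3. DKO replicate 3 held the highest Fgf8 value of the 6 libraries and the other DKO libraries the lowest. The ratio of 0.726 had an interval of 0.303 to 1.74, and without DKO replicate 3 the log2 fold change was -1.30 (edgeR adjusted p = 0.109). Fgf17 had 0.647, 0.640 and 1.68 CPM in the DKO replicates and 0.268, 1.62 and 3.32 CPM in the control replicates, a spread that left an interval of 0.151 to 2.27 for the ratio. Fgf18, whose groups overlapped, had 3.15, 3.93 and 3.42 CPM in the DKO replicates and 4.59, 2.92 and 3.52 CPM in the control replicates, a ratio of 0.947 with an interval of 0.668 to 1.34.

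Fgf9, which signals between epithelium and mesenchyme in many organs, had the largest negative estimate of the ligands but few counts. It measured 0.323, 0.891 and 0.648 CPM across DKO replicates 1 to 3, compared with 1.86, 1.30 and 1.13 CPM across control replicates 1 to 3, so the groups did not overlap. The log2 fold change was -1.20 (SE 0.39) and missed the threshold after adjustment (unadjusted p = 0.0140; edgeR adjusted p = 0.141). Its relatives Fgf16 and Fgf20 had 43 and 6 counts in all and were not tested. Fgf5, known for its part in the hair cycle, had 0.647, 0.777 and 0.805 CPM in the DKO replicates and 0.738, 1.26 and 1.47 CPM in the control replicates, with an overlap of the lower values (log2 fold change -0.61, edgeR adjusted p = 0.314). Its relatives Fgf6 and Fgf4 had 3 and 0 counts in all, and 0 allows up to 0.0671 to 0.135 CPM depending on the library (3 counts, counting error only).

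Fgf1 and Fgf2, which lack a classical secretion signal, also overlapped between groups. Fgf1 had 0.323, 0.640 and 0.469 CPM in the DKO replicates and 0.335, 0.179 and 0.376 CPM in the control replicates (log2 fold change 0.65, edgeR adjusted p = 0.392). Fgf2 had 1.21, 1.76 and 0.648 CPM in the DKO replicates, which held both its highest and its lowest library, and 1.30, 1.12 and 1.09 CPM in the control replicates. Its log2 fold change was 0.04 (edgeR adjusted p = 0.969), and the sign changed under 4 of the alternatives. Fgf2 shares 640 exon bases with Nudt6 on the other strand, so its counts are uncertain where strand was not used.

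Fgf15, the mouse hormone-like FGF of the gut that is also made in embryonic brain and pharyngeal tissue, varied widely within both groups. It had 3.02, 7.13 and 9.19 CPM across DKO replicates 1 to 3, compared with 7.98, 3.95 and 18.9 CPM across control replicates 1 to 3. Fgf3 and Fgf4 lie next to Fgf15 on chromosome 7, within 144838612 to 144900953 (RefSeq, GRCm38.p6). Control replicate 3 was the highest library for Fgf15, for Fgf3 (0.649 CPM) and for Fgf17. Fgf15 shares 761 exon bases with an antisense gene, Gm26793. Fgf23, a bone hormone, had 0.835, 0.525 and 0.738 CPM in the DKO replicates and 0.514, 0.718 and 0.376 CPM in the control replicates (log2 fold change 0.40, edgeR adjusted p = 0.543). Fgf21 had 4 counts, and the co-receptor genes Kl and Klb, which hormone-like FGFs need, had 25 and 11, so the 3 were not tested.

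The 4 intracellular FGFs, which stay in the cell and are known for binding voltage-gated sodium channels in neurons, had 0 called members. Fgf13 had 18.4, 19.5 and 19.7 CPM across DKO replicates 1 to 3, compared with 28.2, 22.5 and 23.3 CPM across control replicates 1 to 3. The groups did not overlap, with a ratio of 0.776 and an interval of 0.650 to 0.927, but the adjusted p was 0.127 (edgeR; unadjusted p = 0.0108). Fgf11 had 4.23, 5.32 and 4.16 CPM in the DKO replicates and 7.47, 4.58 and 5.44 CPM in the control replicates, with a log2 fold change of -0.36 (edgeR adjusted p = 0.384) and control replicate 1 far above the rest. Fgf12 and Fgf14 lay between 1.74 and 3.27 CPM in DKO libraries and 1.26 and 3.58 CPM in controls, with log2 fold changes of -0.10 and 0.27 (edgeR adjusted p = 0.891 and 0.600). The 11 neuron markers examined summed to 1356 to 1480 CPM in DKO libraries and 1460 to 1784 CPM in controls, and 1 of them, the sensory neuron factor Pou4f1, fell by 0.45 on the log2 scale (SE 0.09, edgeR adjusted p = 0.0306). Of the 11, 10 had a log2 fold change below 0, or 8 with library-size scaling only, and none was at 0 counts. Their median was -0.25 (-0.17 with library-size scaling only), beside -0.01 (0.07) over all tested genes. The part of neuron content in the Fgf13 value was not tested.

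**Figure D2:**
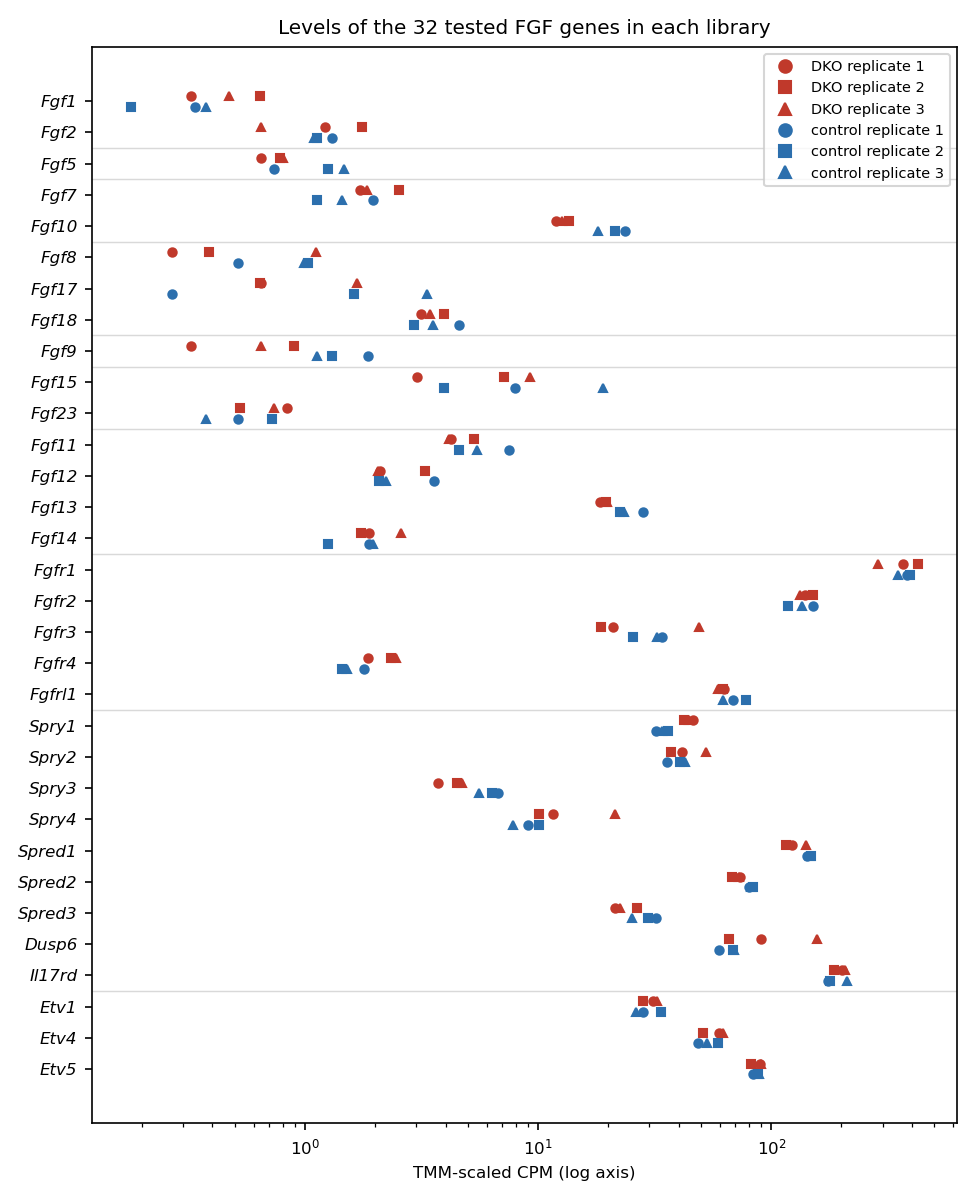
TMM-scaled CPM (log axis) of the 32 tested FGF genes, 1 row per gene in the order ligands, receptors, feedback inhibitors and Etv factors, with DKO libraries in red above control libraries in blue. Secreted ligands lie at or below 24 CPM, while the receptors Fgfr1 and Fgfr2 and the inhibitors Il17rd and Spred1 exceed 100 CPM.

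Of the 5 receptor genes, all tested, 0 were called. Fgfr1, the main receptor of cranial crest, had 367, 425 and 286 CPM across DKO replicates 1 to 3, compared with 381, 394 and 351 CPM across control replicates 1 to 3. DKO replicates 2 and 3 were the highest and the lowest library. The log2 fold change was -0.06 (0.01 with library-size scaling only and 0.07 without DKO replicate 3), and the ratio of 0.956 had an interval of 0.770 to 1.19. Fgfr2, whose splice forms read Fgf10 in epithelium and other ligands in mesenchyme, had 139, 152 and 133 CPM in the DKO replicates and 152, 118 and 136 CPM in the control replicates. Its ratio of 1.04 had an interval of 0.889 to 1.22. Counts per gene do not separate its splice forms. In the annotation used for exon lengths, Fgfr2 shares 314 exon bases with Ctbp2 on the same strand.

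The decoy receptor gene Fgfrl1, whose product lacks a kinase domain, stood at 61.1 ± 1.98 CPM in DKO libraries and 69.6 ± 7.93 CPM in controls (SD, n = 3 each), a ratio of 0.878 with an interval of 0.759 to 1.02. Fgfr4 was low, at 1.86, 2.33 and 2.46 CPM in the DKO replicates and 1.79, 1.44 and 1.504 CPM in the control replicates. Its groups did not overlap, and it was not called (0.48 on the log2 scale, SE 0.23, edgeR adjusted p = 0.266). Per kilobase of exon, Fgfr1 was highest (36.4 CPM per kb in DKO, 38.0 in control libraries), followed by Fgfrl1 (22.0 and 25.0). Fgfr2 (13.7 and 13.1), Fgfr3 (4.12 and 4.26) and Fgfr4 (0.626 and 0.445) came next in that order. The place of Fgfr2 is uncertain, because its exon length and counts depend on the exons annotated as shared with Ctbp2.

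Fgfr3, a receptor known from cartilage and neural tissue, was the receptor whose value rested on 1 library. It had 20.9, 18.5 and 49.2 CPM across DKO replicates 1 to 3, compared with 33.9, 25.5 and 32.2 CPM across control replicates 1 to 3. DKO replicates 1 and 2 lay below every control and DKO replicate 3 above every control. Over all libraries the log2 fold change was -0.05 (0.03 with library-size scaling only; edgeR adjusted p = 0.960). Without DKO replicate 3 it was -0.64 (edgeR adjusted p = 0.0381). Leaving out DKO replicate 1 or 2 instead gave 0.15 and 0.20. Fgfr3 shares 998 exon bases with G630022F23Rik on the other strand.

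**Figure D3:**
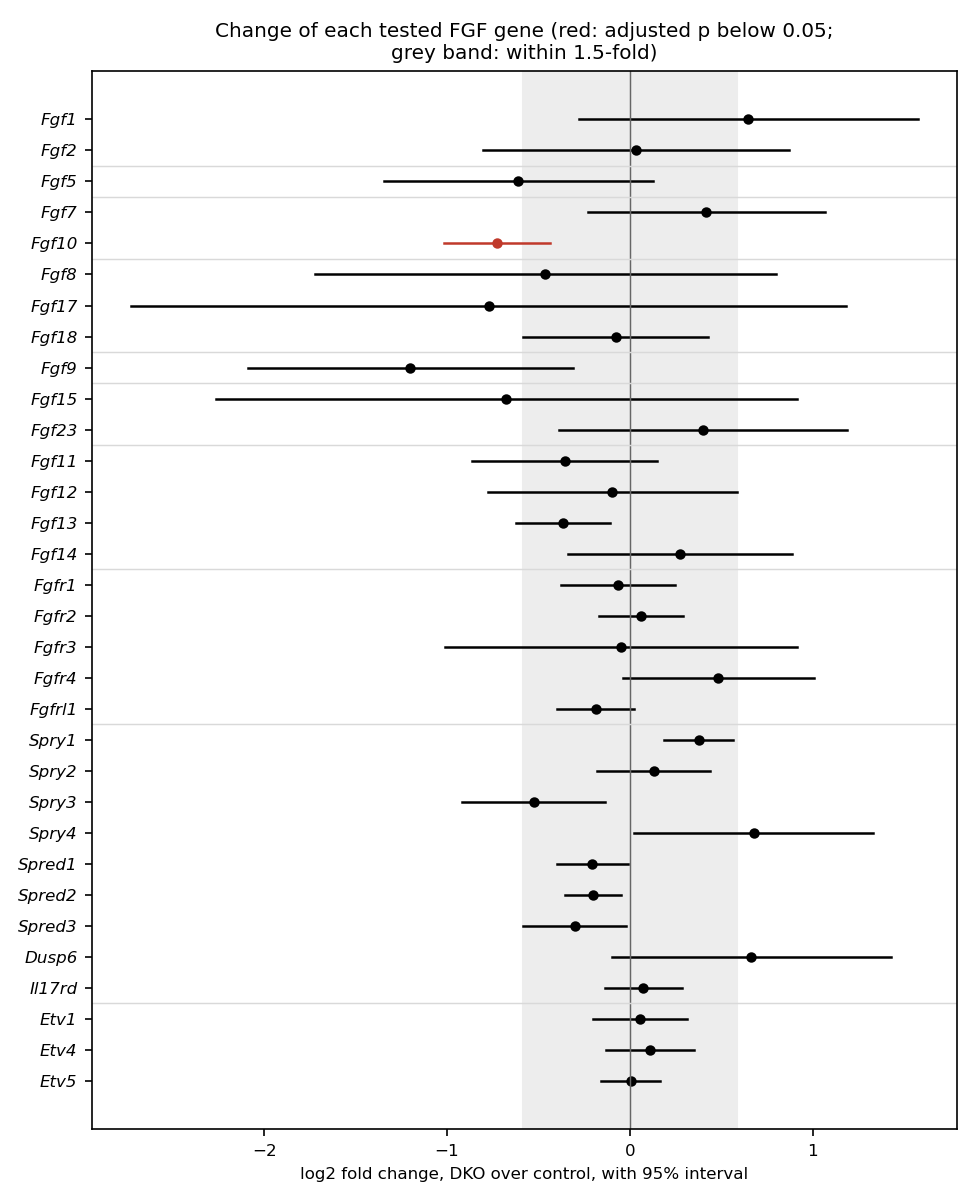
Log2 fold change of DKO over control (horizontal axis) with its 95% interval for the 32 tested FGF genes, with red for an adjusted p below 0.05 and a grey band for changes within 1.5-fold. Only Fgf10 is red, and the intervals of the Etv factors, Fgfr1 and Fgfr2 lie inside the band.

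All 9 feedback inhibitors were tested and 0 were called. Of the 9, 6 had an unadjusted p below 0.05, namely Spry1 and Spry4 higher in DKO and Spry3, Spred1, Spred2 and Spred3 lower, against 20.9% of all tested genes. Spry1, a Sprouty inhibitor of receptor signalling, came closest to a call. It had 46.1, 42.1 and 44.2 CPM across DKO replicates 1 to 3, compared with 31.98, 36.1 and 33.9 CPM across control replicates 1 to 3, and every DKO library was above every control. The ratio was 1.30 with an interval of 1.14 to 1.48, or 0.38 on the log2 scale (SE 0.08, edgeR adjusted p = 0.0511). Spry1 passed the threshold under the DESeq2 Wald test (adjusted p = 0.00290) and, in edgeR, with library-size scaling only (adjusted p = 0.0204), with a minimum of 1 CPM in 3 libraries (0.0472) or when DKO replicate 3 was left out (0.0452). Its log2 fold change lay between 0.34 and 0.46 under all 14 alternatives. Spry1 shares 710 exon bases with the gene model Gm42922 on the other strand.

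Spry4 and Dusp6, a Sprouty and the phosphatase that switches off ERK, had larger estimates than Spry1 but a wider spread. Spry4 had 11.6, 10.05 and 21.3 CPM across DKO replicates 1 to 3, compared with 9.06, 10.1 and 7.79 CPM across control replicates 1 to 3. Dusp6 had 90.2, 65.9 and 156 CPM in the DKO replicates and 59.8, 68.5 and 69.2 CPM in the control replicates. In both genes DKO replicate 3 was far above the other 5 libraries and DKO replicate 2 lay inside the control range. The log2 fold changes were 0.68 for Spry4 (edgeR adjusted p = 0.226) and 0.66 for Dusp6 (0.288), and without DKO replicate 3 they were 0.27 (0.305) and 0.25 (0.291). Spry2 ranged from 37.0 to 52.2 CPM in DKO, again with the highest value in replicate 3, and from 35.8 to 42.8 CPM in the controls (log2 fold change 0.13, and -0.02 without DKO replicate 3).

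DKO replicate 3 was also the highest library for the summed markers of epithelium and of blood and immune cells, and DKO replicate 1 was the lowest. The 11 epithelial markers, all of them tested, summed to 19.8, 21.7 and 35.4 CPM across DKO replicates 1 to 3, compared with 29.3, 29.8 and 24.4 CPM across control replicates 1 to 3. Of these 11, 0 were called and none was at 0 in all libraries. Without DKO replicate 3, 10 of the 11 had a log2 fold change below 0, with a median of -0.51, and 1, the epithelial adhesion gene Epcam, was called lower (-0.86, edgeR adjusted p = 0.0479). The 7 blood and immune markers summed to 12.3, 38.0 and 170.3 CPM in the DKO replicates and 103.5, 54.9 and 90.96 CPM in the control replicates, with 0 of the 4 tested called. In DKO replicate 3 most of the blood and immune sum came from the globin genes Hba-a1 (62.8 CPM) and Hbb-y (101.5 CPM). The summed level of the crest mesenchyme markers was lowest in DKO replicate 3, at 1947 CPM. The part of these cells in the Dusp6, Spry4, Fgf8 and Fgfr3 values was not tested.

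The Spred genes, whose products hold back RAS activation, had estimates below 0 and were not called. Spred2 had 73.1, 67.7 and 72.8 CPM across DKO replicates 1 to 3, compared with 80.05, 83.4 and 82.04 CPM across control replicates 1 to 3. The groups did not overlap, at a ratio of 0.870 with an interval of 0.783 to 0.968 (edgeR adjusted p = 0.149). Spred1 had 122, 116 and 141 CPM in the DKO replicates and 142, 148 and 147 CPM in the control replicates, which separated by about 1 CPM, with DKO replicate 3 nearest the controls. Its adjusted p was 0.221, and 0.0440 without DKO replicate 3 (edgeR; log2 fold changes -0.21 and -0.29). Spred3 had 21.3, 26.5 and 22.5 CPM in the DKO replicates and 31.9, 29.6 and 25.2 CPM in the control replicates, which overlapped. Its log2 fold change was -0.30 (edgeR adjusted p = 0.215), and it shares 202 exon bases with Ggn on the other strand.

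Spry3, the least abundant Sprouty, had an estimate below 0, and it was not called. It had 3.72, 4.50 and 4.69 CPM across DKO replicates 1 to 3, compared with 6.69, 6.33 and 5.57 CPM across control replicates 1 to 3, without overlap. The ratio was 0.695 with an interval of 0.530 to 0.911 (edgeR adjusted p = 0.144). Il17rd, also known as Sef, a membrane inhibitor of FGF receptors and the most abundant inhibitor by CPM, had 201, 186 and 207 CPM in the DKO replicates and 175, 178 and 211 CPM in the control replicates. Its ratio was 1.05 with an interval of 0.910 to 1.22.

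The Etv factors, ETS-family transcription factors that ERK signalling induces, did not differ detectably, and their intervals were narrow. Etv5 had 89.0, 81.7 and 90.2 CPM across DKO replicates 1 to 3, compared with 83.6, 87.7 and 88.7 CPM across control replicates 1 to 3, a ratio of 1.003 with an interval of 0.898 to 1.12. Etv4 had 59.7, 51.1 and 62.1 CPM in the DKO replicates and 48.4, 59.1 and 52.8 CPM in the control replicates, a ratio of 1.08 with an interval of 0.915 to 1.27. Etv1 stood at 30.5 ± 2.22 CPM in DKO libraries and 29.3 ± 3.73 CPM in controls (SD, n = 3 each), a ratio of 1.04 with an interval of 0.871 to 1.24. The adjusted p was 0.979 for Etv5, 0.584 for Etv4 and 0.816 for Etv1 (edgeR).

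For 12 of the 32 tested members, or 37.5%, the 95% interval lay wholly within a 1.5-fold change in either direction, against 63.5% of all tested genes. They were all 3 Etv factors, the receptors Fgfr1, Fgfr2 and Fgfrl1, the inhibitors Spry1, Spry2, Spred1, Spred2 and Il17rd, and the ligand Fgf18. Only 1 of the 15 tested ligands was among them, so changes of that size remain possible for the others.

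**Figure D4:**
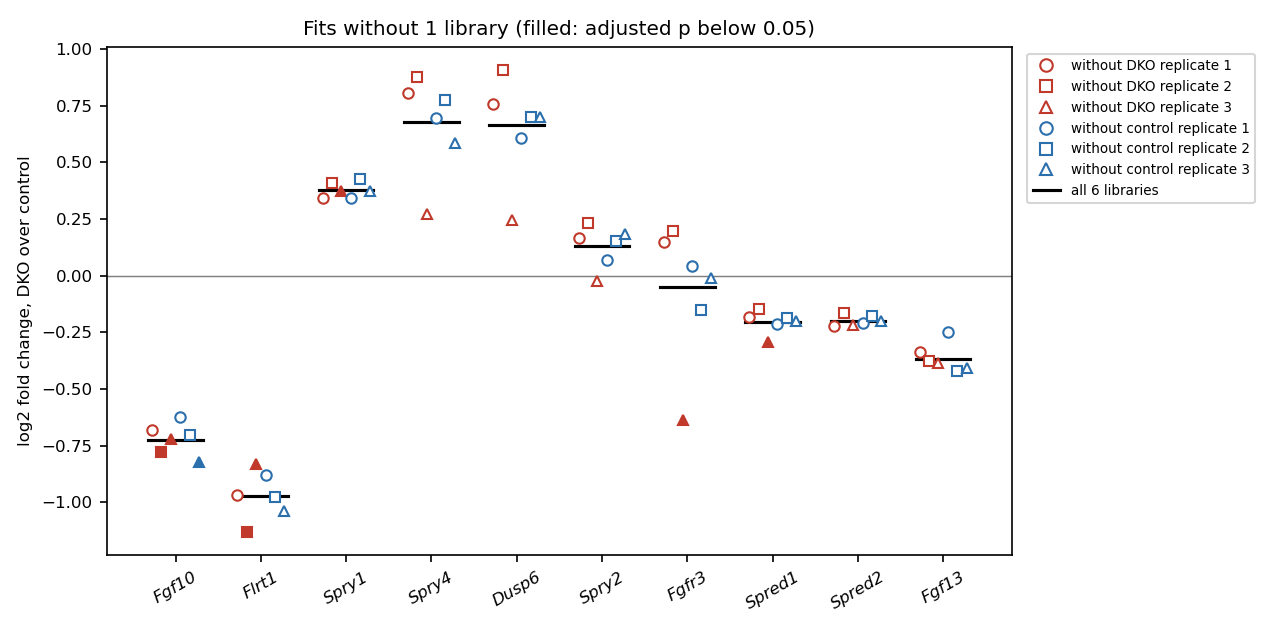
Log2 fold change of DKO over control for 10 genes with all 6 libraries (black line) and with each library left out in turn (red, a DKO library left out; blue, a control library; filled symbols, adjusted p below 0.05). Fgf10, Flrt1 and Spry1 keep their sign in every fit, and Dusp6, Spry4 and Fgfr3 move most without DKO replicate 3.

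Leaving out DKO replicate 3 gave more called members than leaving out any other library. Without it, 4 of 32 members were called: Fgf10, Fgfr3 and Spred1 lower and Spry1 higher. That is to be read against 7.57% of 14601 tested genes called in the same fit, 1106 in place of 438. DKO replicate 3 was also the highest of the 6 libraries for 9 of the 32 members, or 28.1%, against 16.6% of all tested genes, a count made after the values were seen.

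Other genes of the pathway were taken as 4 lists with 81 genes, of which 78 were tested, 0 rose and 1 fell. Over all tested genes, 3.01% were called in either direction and 0.818% were called lower. The share of 1 call among 78 lies between these and is not read as a result about the lists. A log2 fold change above 0 was found for 48.8% of all tested genes, beside which the sign counts of the lists below stand. The fall was in Flrt1, which encodes a membrane protein of the FLRT family that binds FGF receptors. Flrt1 had 5.17, 6.26 and 4.13 CPM across DKO replicates 1 to 3, compared with 11.3, 10.005 and 9.23 CPM across control replicates 1 to 3, with no overlap between groups. The ratio was 0.510 with an interval of 0.381 to 0.683, or -0.97 on the log2 scale (SE 0.18, edgeR adjusted p = 0.0319). The Flrt1 call ended when DKO replicate 1 or any control was left out, with adjusted p of 0.0780 to 0.135 and log2 fold changes of -0.88 to -1.04. Flrt1 lies inside the gene Macrod1 on the other strand, with no shared exon base in the annotation, and Macrod1 had a log2 fold change of 0.27 (adjusted p = 0.542).

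Flrt1 belongs to a list of heparan sulfate enzymes, proteoglycans and co-receptors, with 26 tested members, 0 higher and 1 lower. The list's median log2 fold change was -0.16 (-0.08 with library-size scaling only), beside -0.01 (0.07) over all tested genes. The relatives of Flrt1, Flrt2 and Flrt3, were not called. Flrt3 had 108, 102 and 124 CPM in the DKO replicates and 155, 136 and 128 CPM in the control replicates (log2 fold change -0.33, edgeR adjusted p = 0.127; -0.41 and 0.0432 without DKO replicate 3), and Flrt2 a log2 fold change of -0.35 (0.232).

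Of 27 genes that relay the signal from receptor to ERK, 0 were called, and 21 had a log2 fold change below 0. With TMM the list's median was -0.09, beside -0.01 over all tested genes. With library-size scaling only, 15 lay below 0, and the medians were -0.01 for the list and 0.07 over all tested genes. The smallest p-value was that of Nf1, the neurofibromin gene that restrains RAS. Nf1 had 130, 127 and 137 CPM in the DKO replicates and 171, 155 and 145 CPM in the control replicates (edgeR adjusted p = 0.128). Without DKO replicate 3, Sos1, Nras and Rasa1 of the list were called lower, with log2 fold changes of -0.40, -0.32 and -0.33 (edgeR adjusted p = 0.0330, 0.0372 and 0.0293).

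Of 17 other feedback genes and immediate targets of ERK, 16 were tested and 0 were called. Their median log2 fold change was 0.20, and 13 of the 16 lay above 0 (11 without DKO replicate 3). The 17 genes summed to 1194, 1004 and 1188 CPM in the DKO replicates and 897, 1082 and 1123 CPM in the control replicates. Control replicate 1 was thus the lowest library, and the other controls lay within the DKO range. Spsb1, a ubiquitin ligase adaptor gene, had the smallest p-value, with 77.7, 63.6 and 65.0 CPM in the DKO replicates and 55.0, 61.5 and 58.1 CPM in the control replicates (log2 fold change 0.24, edgeR adjusted p = 0.202), followed by the immediate early gene Ier2 (0.30, adjusted p = 0.328).

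Of 9 arch transcription factor genes known to need FGF8 signals, 0 were called, and the median log2 fold change was 0.09. Whether they still need FGF8 at E11.5 was not tested, so their levels are not a measure of FGF8 signal here. Dlx5, a distal arch homeobox gene, had 73.6, 75.8 and 72.5 CPM in the DKO replicates and 91.2, 110.8 and 77.7 CPM in the control replicates (log2 fold change -0.33, edgeR adjusted p = 0.170). Lhx8, a LIM homeobox gene of the oral side of the first arch, had 104, 97.7 and 93.8 CPM in the DKO replicates and 89.6, 91.6 and 73.4 CPM in the control replicates (log2 fold change 0.22, adjusted p = 0.247). Barx1 and Pitx1 had log2 fold changes of 0.18 and 0.01.

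Markers of further cell types were also measured. The 7 endothelial markers summed to 27.8 to 30.8 CPM in DKO libraries and 13.7 to 18.1 CPM in controls, without overlap, and 1 of the 7, the receptor gene Tie1, rose (log2 fold change 3.04, edgeR adjusted p = 0.000503). The 7 muscle and mesoderm markers summed to 9.53 to 13.1 CPM in DKO libraries and 9.74 to 11.1 CPM in controls, and the 7 glial markers to 259 to 272 CPM in DKO libraries and 272 to 298 CPM in controls, with 0 called in either list. No marker on these lists was at 0 in all libraries. Their part in the FGF gene values was not tested.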

How the data were processed

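Per the labels, RNA came from sorted arch cells in 6 libraries. The authors deposited 1 table of raw counts for each gene symbol, as whole numbers without scaling. The submitters' processing notes name Trim Galore, STAR 2.7.10a, Picard and the build mm10. How reads were assigned to genes (program, strand, annotation, duplicates) is not given in the sources used here. Genes that overlap may therefore share or lose reads.

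After filterByExpr by group (count of 10, total of 15), 14555 genes were tested. They were TMM-scaled and fitted in edgeR 4.0.16 (R 4.3.3) by robust quasi-likelihood, 2-sided, on group alone, with Benjamini-Hochberg adjustment across all of them. A call is an adjusted p below 0.05. Each log2 fold change sets DKO over control. Its SE is its size over the root of F, and its 95% interval uses the t distribution with the degrees of freedom of the fit. The procedure was also run on simulated counts without an outlying library and with changes placed only in genes of at least 1 CPM. That run cannot speak to outlying libraries or to scarcer genes. Exon lengths are unions of GENCODE M21 exons. Positions and promoter windows come from RefSeq (GRCm38.p6), which gave windows for 31 of the 41 genes. DESeq2 1.42.0 and limma 3.58.1 served as alternatives.

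Values per library are given for called members, for the 2 most abundant of each role, for those with an unadjusted p below 0.05 and for those whose groups did not overlap at a log2 fold change of at least 0.5 in size. Fgf8, Fgfr3, Fgfr4, Fgfrl1, Dusp6, Spry2 and Etv1, which lie outside that rule, and genes of other lists beyond those called or the 2 with the smallest p, were added after their values were seen. Members were selected by name alone, but the choice of this gene family and of the lists was made with earlier results of these data known. Some genes that the rule would name are not reported here.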

Additional observations from a re-analysis of the deposited data

How the results depend on the processing

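Of 32 tested FGF genes, 21 kept the sign of their log2 fold change in every alternative that tested them (14 were run) and 11 changed it under at least 1. Fgf10 was lower under all 14. Members called numbered 1 in the analysis reported and 2 (Fgf10 and Spry1) with library-size scaling only, with at least 1 CPM in 3 libraries and with DESeq2, 0 against a 1.5-fold change, and 0 to 4 when 1 library was left out. Other pathway genes called numbered 1, 0 against a 1.5-fold change, and 0 to 6 without 1 library. Over all genes, 438 calls became 1106 with DESeq2 (56.4% higher, against 72.8%), 122 against a 1.5-fold change (85.2% higher) and 131 to 1106 without 1 library, and library-size scaling only gave 83.9% higher. The cause was not tested.

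Sign changes were in members with small or uneven log2 fold changes. Fgf2 was -0.094 with limma-voom and -0.050 with the replicate block. With library-size scaling only, Fgfr1 was 0.015 and Fgfr3 0.029. Etv5 was -0.000342 with no filter. When 1 library was left out at a time, Fgf2 ranged from -0.35 to 0.34, Fgf12 from -0.35 to 0.22, Fgf15 from -1.04 to 0.097, Fgf17 from -1.39 to 0.18, Fgf18 from -0.21 to 0.13, Fgfr1 from -0.20 to 0.075, Fgfr2 from -0.019 to 0.16, Fgfr3 from -0.64 to 0.20, Spry2 from -0.024 to 0.23, Etv1 from -0.014 to 0.17 and Etv5 from -0.023 to 0.048.

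The titles number the replicates but do not say that a number pairs a DKO with a control library. Same-numbered libraries had correlations of deviations from their group means of -0.03, 0.0002 and 0.44 over genes. The highest correlation was that of DKO replicate 2 with control replicate 1 (0.53). With 3 libraries per group such deviations offset each other, so the correlations cannot decide whether the numbers pair libraries. With the replicate block 619 genes were called and 1 member, Fgf10 (adjusted p = 0.0149). Depth limits the scarce ligands: the 8 members under the filter had 3 to 62 counts over all 6 libraries, and values for them from fits with no filter or with 1 library left out are not reported.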
